A study of Mus musculus with 9 samples.

Results

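The comparison described here is that of TPEN with vehicle after optic nerve crush (ONC), and its fold changes rest on 6 of the 9 libraries of the study. Its members are the 3 libraries labelled TPEN and the 3 labelled ONC, both taken on day 3 after the crush. TPEN is a cell-permeable chelator that binds mobile zinc, and PBS was the vehicle. All mice were wild-type C57BL/6J, and both groups had the nerve crushed and the eye injected immediately afterwards, so the groups differ in the injected agent. The other 3 libraries (Ctrl) came from uninjured retinas and are shown as a reference level. They also entered the estimate of the spread between libraries and the choice of genes tested, so they affect the p-values. RNA was taken from cells of digested retinas sorted as CD90.2+ CD48- CD15- CD57-, a gate meant to enrich retinal ganglion cells (RGCs). Whether the 3 libraries of each group stand for different mice is stated neither in the labels nor in the methods, so p-values may measure technical spread only.

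RGCs are the neurons whose axons form the optic nerve, and after a crush most of them die. Zinc that is not tightly bound to protein is released from amacrine cells, the inhibitory interneurons that contact RGCs, and chelators such as TPEN remove it. Metallothioneins bind zinc, proteins of the SLC30 family move it out of the cytosol, and those of the SLC39 family move it in. A crush also brings resident microglia and infiltrating phagocytes into an activated state and makes Müller glia, the radial support cells of the retina, reactive. Cones are photoreceptors of bright light and colour. They use their own opsins, transducin, phosphodiesterase, channel subunits and arrestin, which lets their transcripts be told from those of rods.

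The sorted cells were not RGCs alone. Summed over 16 rod markers, the level ranged from 22222 to 22335 RPKM (reads normalized for exon length and for the total of the library) in ONC and from 23505 to 23603 RPKM in TPEN. The sum of the 12 listed RGC markers of 15 was 407 to 429 RPKM in ONC, 321 to 333 RPKM in TPEN and 382 to 392 RPKM in Ctrl. For 12 cone markers the sum was 217 to 226 RPKM in ONC, 309 to 314 RPKM in TPEN and 192 to 196 RPKM in Ctrl. The sum includes Gnb3, which was far higher in ONC than in Ctrl (values below). The median log2 difference of the cone markers in ONC against Ctrl was -0.15, so most of them did not follow the sum. The 16 listed microglia and macrophage markers of 20 summed to 79.8 to 83.6 RPKM in ONC, 40.1 to 42.4 RPKM in TPEN and 10.6 to 10.7 RPKM in Ctrl. Müller glia markers summed to 695 to 708 RPKM in ONC and 567 to 577 RPKM in TPEN, but their members did not move one way, with 4 of 14 lower, 2 higher and a median log2 difference of -0.01. No marker of T cells or of the lens is listed. The marker sums of these cell types move with the results below, and in sorted bulk RNA a change in the number of cells of a type and a change in RNA per cell cannot be told apart. Library totals worked out from the values were 22967138 to 22986065 reads in ONC and 19946993 to 22217283 in TPEN. A gene at 0 could hold up to 3 reads per library, a floor that covers counting error only. At most 1 listed gene had no read in an ONC library, and 8 to 11 had none in a TPEN library, so the genes raised by TPEN here are genes with reads in ONC. The lowest sum over the 3 ONC libraries of a raised gene was 27 reads.

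Differences are given as log2 fold changes, the mean of log2(RPKM + 0.1) over the 3 TPEN libraries minus that over the 3 ONC libraries, with their standard error (SE) and limma adjusted p-value. The added 0.1 RPKM understates the change of low genes. A differentially expressed gene (DEG) changed at least 1.5-fold and had an adjusted p under 0.05. Of 13566 genes tested, 111 (0.818%) were upregulated in TPEN and 164 (1.21%) were downregulated. The increases were smaller than the decreases. The upregulated genes had a median log2 fold change of 0.78, with a range of 0.59 to 1.46, and 19 of them changed at least 2-fold. The downregulated genes had a median of -1.07 and reached -5.99, and 89 changed at least 2-fold. The median of all genes tested was -0.01.

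Without the fold limit, 440 genes (3.24%) were higher in TPEN and 562 (4.14%) lower. This split depended on the scaling, since quantile normalization of the libraries gave 530 higher and 446 lower. The counts fell when any 1 of the ONC or TPEN libraries was left out, but more genes were lower than higher each time. Leaving out ONC replicate 1, 2 or 3 gave 257, 247 and 272 higher genes and 279, 297 and 327 lower genes. Without TPEN replicate 1 the counts were 282 and 359, without TPEN replicate 2 they were 296 and 393, and without TPEN replicate 3 they were 261 and 302. Every TPEN library lay above every ONC library for 1691 genes (12.5%), and every TPEN library lay below for 2111 (15.6%). Among them were all 111 upregulated and all 164 downregulated genes, so a lack of overlap adds no support to the call of a DEG. An adjusted p under 0.05 was kept in all 9 fits that each left out 1 library by 64 of the 111 upregulated genes and by 101 of the 164 downregulated genes. Unless stated otherwise, an adjusted p under 0.05 given for a gene below was kept in all 9 of these fits.

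**Figure D1:**
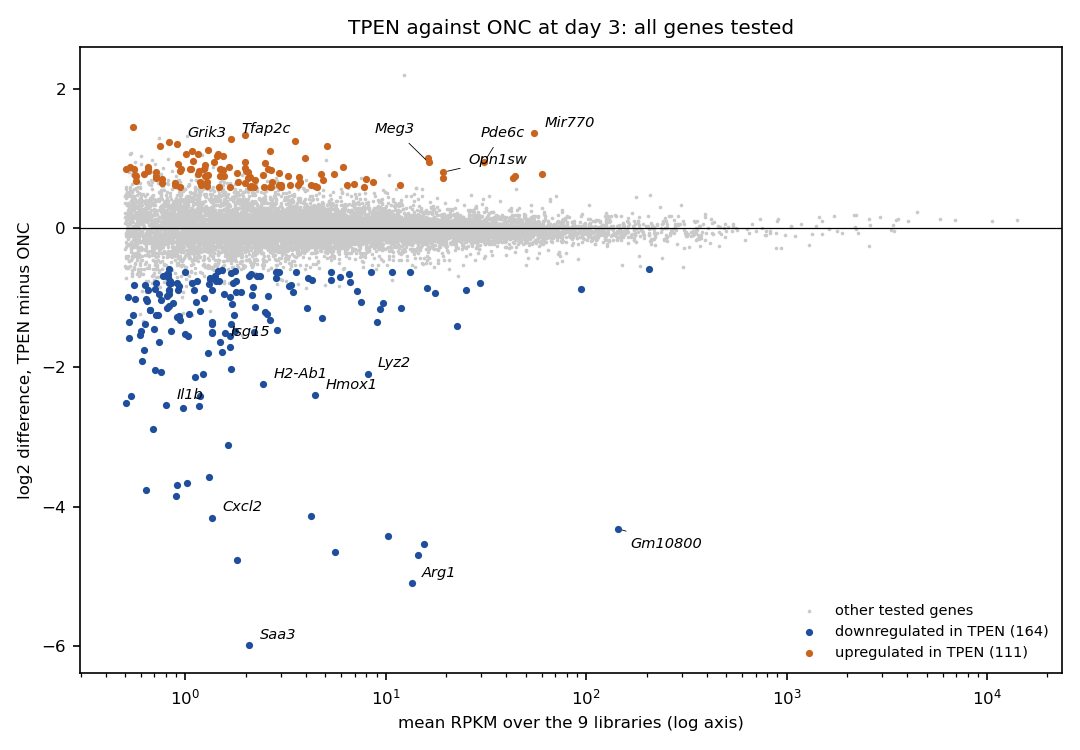
Each point is 1 of the 13566 genes tested, with its mean RPKM over the 9 libraries on a log axis and the log2 fold change in TPEN against ONC on the vertical axis. The 111 upregulated genes (orange) lie between 0.59 and 1.46, while the 164 downregulated genes (blue) reach -5.99, and both groups lie mostly below 10 RPKM.

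The raised genes were spread over 20 chromosomes. Their median exon length was 4296 bases, against 2680 bases for the downregulated genes and 3598 bases for all genes tested, and their median genomic span was 23297 bases, against 10825 and 18666 bases. Their median level, as a mean of the 9 libraries, was 1.84 RPKM, against 1.36 RPKM for the downregulated genes and 5.08 RPKM for all genes tested. Low level was thus shared by both sets of DEGs. Protein-coding genes made up 85 of the 111 (76.6%, against 90.2% of the downregulated genes and 81.2% of all genes tested). Another listed gene overlapped 37 of them (33.3%, against 35.4% and 42.5%). Sorted by role after their values had been seen, they held 9 cone genes, 12 receptors, channels and transporters, 15 genes of adhesion, guidance and synapses, 9 of transcription and nuclear regulation, 7 of calcium and kinase signalling, 2 collagens, 31 predicted or noncoding genes and 26 other protein-coding genes. The median log2 fold change of these groups lay between 0.67 (calcium and kinase signalling) and 1.09 (collagens). Roles were given to raised genes only, so these counts have no share over all genes tested beside them.

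Cone genes were the group in which the largest part of a list rose. Of 12 cone markers, 9 were upregulated, 2 did not pass the test and 1 was lower, with a median log2 fold change of 0.74. In 11 of the 12, every TPEN library lay above every ONC library. The increases ran through the cascade from opsin to channel, and they were about equal in size, from 0.59 to 0.96 on the log2 scale.

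Both cone opsins rose. Opn1sw, which encodes the short-wavelength opsin, was at 14.6, 15.5 and 14.7 RPKM in ONC and 25.3, 26.8 and 26.8 RPKM in TPEN (log2 fold change 0.81, SE 0.04, adjusted p = 4.8e-06). Opn1mw, the middle-wavelength opsin, was at 4.51, 4.07 and 4.46 RPKM in ONC and 7.94, 7.41 and 7.19 RPKM in TPEN (0.78, SE 0.09, adjusted p = 0.00104). The groups did not overlap for either gene, which holds for every upregulated gene. The 3 Ctrl libraries, at 16.6 to 17.2 RPKM for Opn1sw and 4.15 to 5.20 RPKM for Opn1mw, lay nearer to ONC than to TPEN. The listed span of Opn1sw overlaps Calu, which had a log2 fold change of 0.02 (adjusted p = 0.814). The listed span of Opn1mw also shares bases with another gene, so its reads are uncertain there.

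The enzymes that follow the opsins in the cascade rose as well. Gnat2, the alpha subunit of cone transducin, was at 34.8, 32.4 and 38.7 RPKM in ONC and 58.3, 60.5 and 58.7 RPKM in TPEN (0.75, SE 0.06, adjusted p = 8.9e-05). Pde6c, the catalytic subunit of cone phosphodiesterase on chromosome 19 (38132781 to 38183947, GRCm38), rose from 21.8, 22.3 and 23.1 RPKM to 43.1, 42.9 and 44.9 RPKM (0.96, SE 0.04, adjusted p = 8.8e-07). Pde6c had the largest increase of the cone markers, a 1.95-fold ratio of the means. Pde6h, the inhibitory subunit of the same enzyme, rose from 4.66, 4.48 and 4.52 RPKM to 8.62, 8.59 and 8.33 RPKM (0.89, SE 0.05, adjusted p = 1.1e-05). Pde6h shares exon sequence with Arhgdib, which moved the opposite way (-1.51, adjusted p = 0.0199, up to 0.0781 without ONC replicate 1 or 2 or TPEN replicate 2 or 3).

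At the ends of the cascade stand the channel, which closes in light, and arrestin, which shuts off the opsin. Cngb3, the beta subunit of the cyclic nucleotide-gated channel of cones, was at 1.64, 1.45 and 1.45 RPKM in ONC and 2.78, 2.32 and 3.12 RPKM in TPEN (0.81, SE 0.13, adjusted p = 0.00587). Its partner Cnga3 was at 2.70, 2.09 and 1.99 RPKM in ONC and 2.87, 3.83 and 3.69 RPKM in TPEN (0.59, SE 0.14, adjusted p = 0.0366). The call for Cnga3 was weak. It was lost, with an adjusted p of up to 0.122, when Ctrl replicate 1 or 2, ONC replicate 2 or 3, or TPEN replicate 2 or 3 was left out. Arr3, the cone arrestin, had one of the tightest differences, at 34.0, 32.0 and 34.0 RPKM in ONC and 55.5, 55.1 and 55.7 RPKM in TPEN (0.73, SE 0.03, adjusted p = 1.6e-06). Kcne2, a potassium channel subunit kept in the cone list, rose from 13.9, 15.9 and 15.6 RPKM to 23, 26.7 and 25.2 RPKM (0.72, SE 0.08, adjusted p = 0.00103).

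The 3 remaining cone markers are named for contrast. Gngt2, the gamma subunit of cone transducin, had a log2 fold change of 0.23 (adjusted p = 0.214), and Thrb, a nuclear receptor that cones need to make the middle-wavelength opsin, had 0.07 (adjusted p = 0.377). Gnb3, the beta subunit of transducin, was lower in TPEN, at 58.8, 57.0 and 56.9 RPKM, than in ONC, at 66.7, 66.0 and 68.0 RPKM (-0.22, SE 0.05, adjusted p = 0.0251), and is also used by bipolar cells. In Ctrl it was at 21.1, 19.4 and 22.4 RPKM, far below both injured groups. The decrease of Gnb3 no longer passed without any 1 of the ONC or TPEN libraries, with an adjusted p of up to 0.0879. Rod genes moved little. Of 16 rod markers, 3 were higher and 1 lower at any fold, and none was a DEG. The rod markers had log2 fold changes of -0.17 to 0.14.

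**Figure D2:**
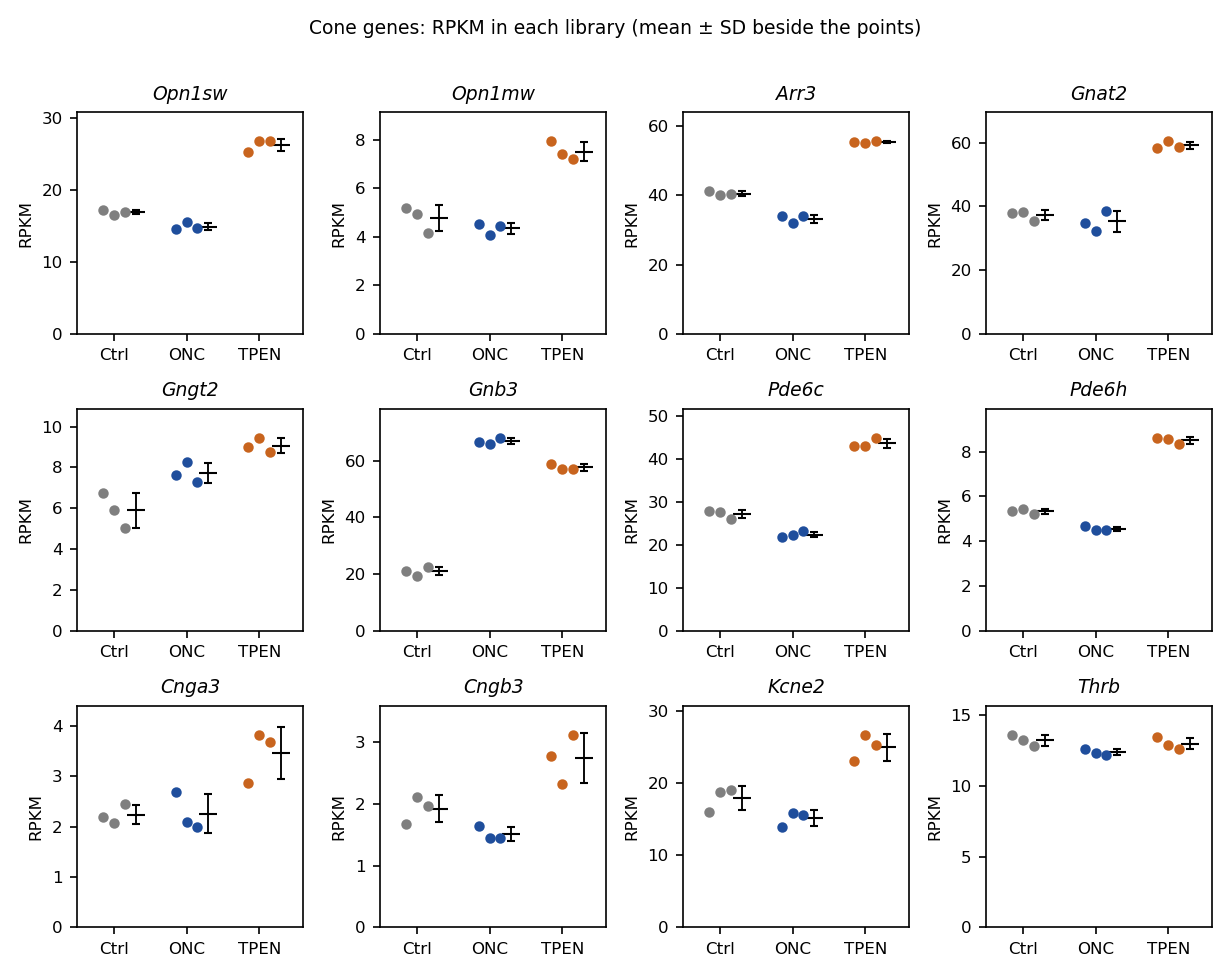
RPKM of the 12 cone markers in each library of Ctrl (grey), ONC (blue) and TPEN (orange), with the mean ± SD of each group beside its points. In 11 panels the 3 TPEN points lie above the 3 ONC points, by 0.07 to 0.96 on the log2 scale, and Gnb3 is the exception.

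CRX, the homeodomain factor that photoreceptors depend on, binds a core of TAATC, and its targets include cone genes. The promoters shown are of cone genes that hold this core. Printed are the 250 bases before the RefSeq start of Arr3 (chrX:100605247-100605496, plus strand), Gnat2 (chr3:108092816-108093065, plus strand) and Opn1sw (chr6:29380514-29380763, minus strand), in GRCm38.p6 and 5′ to 3′ on the strand of the gene, with TAATC or its reverse complement GATTA in capitals.
Arr3: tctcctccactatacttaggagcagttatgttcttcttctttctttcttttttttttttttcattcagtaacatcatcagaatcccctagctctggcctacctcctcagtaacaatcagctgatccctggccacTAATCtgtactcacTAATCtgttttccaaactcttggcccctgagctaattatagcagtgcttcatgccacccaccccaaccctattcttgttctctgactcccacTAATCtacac
Gnat2: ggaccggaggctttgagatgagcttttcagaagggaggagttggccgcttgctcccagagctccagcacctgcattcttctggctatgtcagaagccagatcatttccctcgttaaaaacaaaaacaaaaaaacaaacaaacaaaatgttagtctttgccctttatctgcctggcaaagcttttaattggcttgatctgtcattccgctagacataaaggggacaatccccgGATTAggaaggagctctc
Opn1sw: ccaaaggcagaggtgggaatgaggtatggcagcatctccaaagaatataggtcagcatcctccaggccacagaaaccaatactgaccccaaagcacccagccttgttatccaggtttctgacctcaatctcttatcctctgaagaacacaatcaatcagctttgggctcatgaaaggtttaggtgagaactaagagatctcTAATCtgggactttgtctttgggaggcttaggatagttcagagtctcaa
Arr3 holds 3 matches, of which the nearest ends 6 bases before the start. Gnat2 holds 1 on the reverse strand and Opn1sw 1. Of the 9 upregulated cone genes, 7 had such a window and 4 of these (Arr3, Gnat2, Kcne2 and Opn1sw) held a match on either strand, against 19.8% of 32851 windows of RefSeq genes and 17% of the windows of 9160 genes tested. The windows of Cnga3, Opn1mw and Pde6h held no match. A match describes letters and not binding.

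Among receptors and channels, subunits of neurotransmitter receptors rose in 5 of 16 members tested of the glutamate, GABA and glycine receptor list, with none lower, and 2 were DEGs. The median of the list was 0.34, against -0.01 for all genes. Grik3, a kainate-type glutamate receptor subunit on chromosome 4 (125490700 to 125714173, GRCm38), was at 0.625, 0.607 and 0.490 RPKM in ONC and 1.41, 1.45 and 1.53 RPKM in TPEN (1.22, SE 0.13, adjusted p = 5.9e-04). Gria4, an AMPA-type subunit, was at 1.50, 1.30 and 1.35 RPKM in ONC and 2.12, 2.13 and 2.11 RPKM in TPEN (0.59, SE 0.10, adjusted p = 0.00690). Both separated the groups fully, like every upregulated gene. For both the Ctrl libraries were nearer to ONC, at 0.665 to 0.744 RPKM for Grik3 and 1.41 to 1.61 RPKM for Gria4. Gria2, another AMPA-type subunit (0.54, adjusted p = 0.0267), lost its call without ONC replicate 1 or 2 or any TPEN library (up to 0.0990). The NMDA-type subunit Grin2d (0.42, adjusted p = 0.0452) kept it without ONC replicate 1 only (up to 0.143 without the others).

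Voltage-gated sodium and calcium channels were higher in 3 of 16 members and lower in none, with a median of 0.17. Cacna2d3, an auxiliary calcium channel subunit, was at 1.02, 0.978 and 0.789 RPKM in ONC and 1.77, 1.82 and 1.67 RPKM in TPEN (0.85, SE 0.15, adjusted p = 0.0105), and the gene Lrtm1 lies within its span. Cacna1g and Cacna1h, pore subunits of T-type calcium channels, had 0.75 (adjusted p = 0.0230) and 0.47 (adjusted p = 0.0329), and both lost the call without ONC replicate 2 or 3 or any TPEN library, with values up to 0.107. In the Kcn family of potassium channels, 5 of 21 were higher and none lower, with a median of 0.16, and Kcne2 was 1 of the 2 DEGs. The other was Kcnj3, a subunit of the G protein-gated inward rectifier, which rose from 0.793, 0.760 and 0.735 RPKM to 1.55, 1.54 and 1.33 RPKM (0.86, SE 0.13, adjusted p = 0.00491). Ryr2, a calcium release channel of the endoplasmic reticulum, rose from 0.865, 0.705 and 0.667 RPKM to 1.45, 1.55 and 1.64 RPKM (0.97, SE 0.12, adjusted p = 0.00179). In the 3 genes whose libraries are given here, as in every upregulated gene, no TPEN library came down to the level of an ONC library.

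Others of this role were chosen after their values were seen. Dpp6, an auxiliary subunit of A-type potassium channels, was at 0.624 to 0.705 RPKM in ONC and 1.23 to 1.29 RPKM in TPEN (0.85). Slc4a10, a sodium bicarbonate transporter of neurons, was at 2.05 to 2.26 RPKM in ONC and 3.19 to 3.36 RPKM in TPEN (0.59). Both genes that follow were named by the rule on the size of the increase, and their calls were lost when any 1 of several libraries was left out. Slc24a4, a sodium, calcium and potassium exchanger (0.75, adjusted p = 0.0131), lost its call without ONC replicate 1 or 2 or TPEN replicate 1 (up to 0.0528), and Adrb1, the beta-1 adrenergic receptor (0.80, adjusted p = 0.0220), lost it without ONC replicate 1 or 2 or any TPEN library (up to 0.0783).

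Transcription factors of retinal interneurons were higher in 5 of 19 members and lower in 1, with a median of 0.15, and 3 were DEGs. Tfap2c, an AP-2 factor of amacrine cells on chromosome 2 (172549593 to 172558622, GRCm38), was at 1.30, 0.923 and 0.923 RPKM in ONC and 3.03, 2.67 and 2.34 RPKM in TPEN (1.28, SE 0.15, adjusted p = 0.00123). This 2.56-fold ratio was the largest increase among genes that met the rule for naming. Ebf3, a helix-loop-helix factor of subsets of retinal neurons, rose from 0.787, 0.689 and 0.830 RPKM to 1.56, 1.81 and 1.80 RPKM (1.07, SE 0.12, adjusted p = 7.2e-04), and it shares exon sequence with the antisense gene Gm45278, which was also upregulated (adjusted p = 0.0193, up to 0.0687 without any ONC library or TPEN replicate 1 or 3). Whether counting used the strand is not given in the sources used here, so the reads of the pair cannot be told apart. Pax6, which amacrine and ganglion cells keep in the adult, rose less (0.37, adjusted p = 0.0105). Prox1, a factor of horizontal and AII amacrine cells (0.60, adjusted p = 0.0139), lost its call without ONC replicate 2 or TPEN replicate 2 or 3 (up to 0.0552). Neurod4 (0.50, adjusted p = 0.0215) lost it without ONC replicate 1 or 2 or TPEN replicate 1 or 2 (up to 0.0786).

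The summed level of the 10 listed amacrine markers of 14 was 54.1 to 55.9 RPKM in ONC and 56.4 to 58.9 RPKM in TPEN. Of 6 tested, 3 passed as higher and none as lower, with a median of 0.06. The other 3 did not pass and had log2 fold changes below 0, down to -0.47, so these markers did not move one way. The bipolar markers summed to 91.3 to 92.1 RPKM in ONC and 97.8 to 103 RPKM in TPEN, and 3 of 13 tested were higher, none past the fold limit. One of these was Gpr179, a protein that ON bipolar cells need for signalling (0.41, adjusted p = 0.00622).

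Nuclear genes outside that list rose too. Nhlh2, a neuronal helix-loop-helix factor, was at 2.01, 1.83 and 1.66 RPKM in ONC and 3.22, 3.47 and 4.15 RPKM in TPEN (0.94, SE 0.11, adjusted p = 0.00123). Zfp804a, a zinc finger gene, rose from 0.946, 1.03 and 0.905 RPKM to 1.91, 2.03 and 1.91 RPKM (0.95, SE 0.12, adjusted p = 0.00194), and Zfp871 from 2.14, 1.82 and 2.47 RPKM to 4.03, 3.82 and 3.50 RPKM (0.80, SE 0.12, adjusted p = 0.00346). Zfp804a and Zfp871 were the DEGs among 322 Zfp genes tested, a family of which 5 were higher and 3 lower at any fold. That share was below the background for all genes in both directions, in a family whose proteins fold around zinc.

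**Figure D3:**
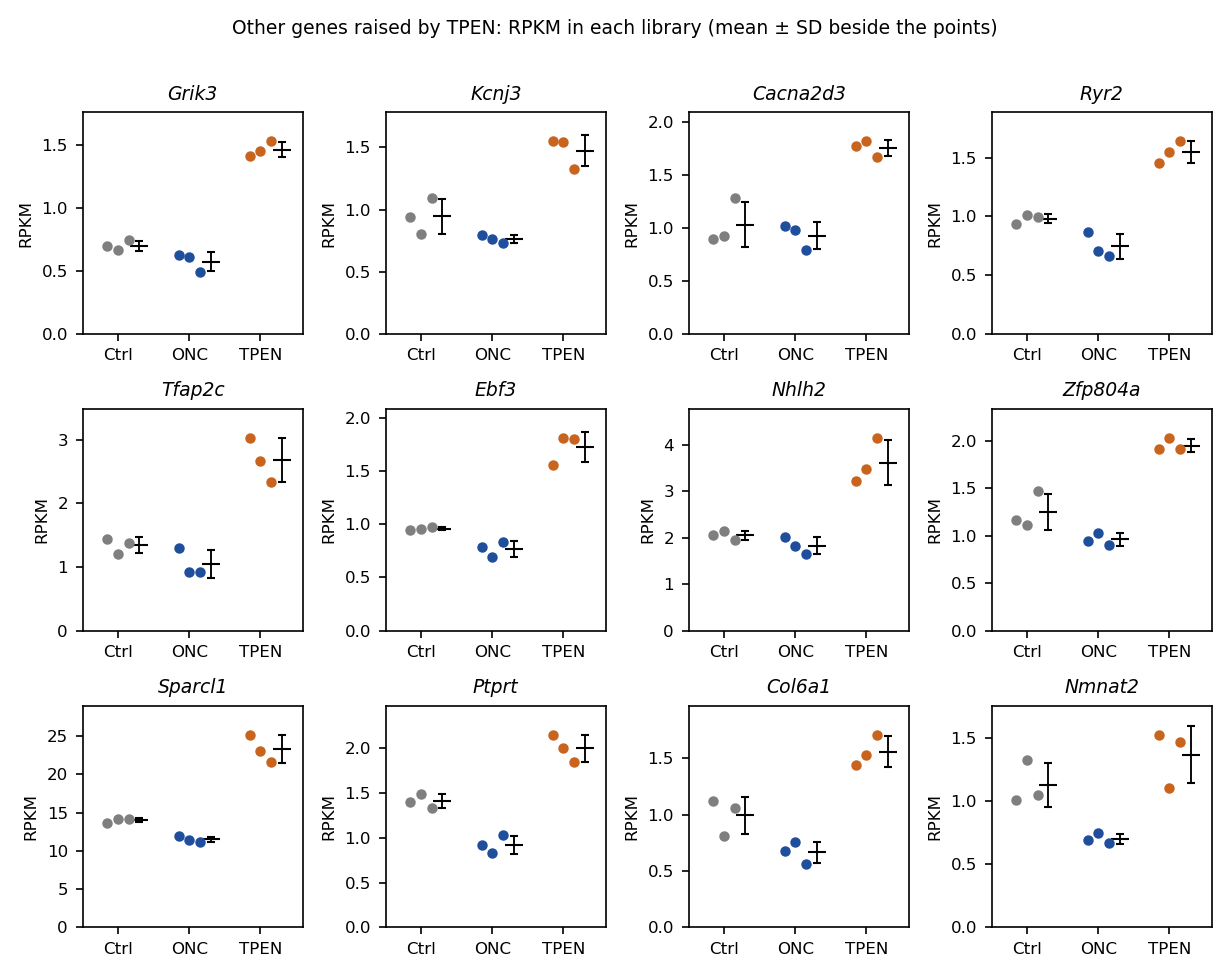
RPKM of 12 genes upregulated in TPEN in each library of Ctrl (grey), ONC (blue) and TPEN (orange), with the mean ± SD of each group beside its points. In every panel the lowest TPEN point lies above the highest ONC point, which holds for all 111 upregulated genes. Most genes lie at 0.5 to 4 RPKM, with Sparcl1 reaching 25.2 RPKM.

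Under adhesion, guidance and synapses, 15 raised genes were sorted, with a median of 0.83. Of these, 9 kept an adjusted p under 0.05 whichever library was left out. The count is not set against all tested genes of this role. Sparcl1, a matricellular protein that glia and neurons secrete and that promotes synapse formation, was at 11.9, 11.4 and 11.2 RPKM in ONC and 25.2, 23.1 and 21.6 RPKM in TPEN (1.02, SE 0.06, adjusted p = 8.7e-06). Ptprt, a receptor tyrosine phosphatase that mediates cell adhesion, rose from 0.914, 0.829 and 1.03 RPKM to 2.15, 2.00 and 1.84 RPKM (1.04, SE 0.11, adjusted p = 8.1e-04). Ptprf, a phosphatase of the same class that was chosen after its values were seen, rose from 3.12, 2.77 and 2.52 RPKM to 4.64, 4.98 and 4.63 RPKM (0.74, SE 0.09, adjusted p = 0.00114). TPEN and ONC libraries were apart for all 3 genes, as for every upregulated gene, and the Ctrl libraries lay between them.

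Further members were Hs6st3, a heparan sulfate sulfotransferase (1.07, adjusted p = 0.00238), Lamp5, a membrane protein of vesicles in GABAergic neurons (0.95, adjusted p = 0.00328), Sema4g, a semaphorin (0.83, adjusted p = 0.00532), and Adgrb1, an adhesion receptor (0.82, adjusted p = 0.0112). Nmnat2, the NAD-synthesizing enzyme whose loss from axons starts their degeneration, was at 0.692, 0.746 and 0.670 RPKM in ONC and 1.53, 1.11 and 1.47 RPKM in TPEN (0.86, SE 0.15, adjusted p = 0.0105). Ctrl was at 1.01, 1.33 and 1.05 RPKM, so TPEN replicates 1 and 3 lay above all Ctrl libraries and ONC libraries lay below all of them. The list of axon guidance ligands and receptors had 0 of 18 members past the threshold in limma, 2 at an unadjusted p under 0.05 and 1 by limma-voom on the whole reads. Of 42 protocadherins, 0 passed in limma and 12 had an unadjusted p under 0.05, while voom called 10, so this family depended on the test. In the list of synaptic vesicle and release genes, 9 of 30 were higher and 3 lower, with 1 DEG. Those higher included the active zone scaffold Pclo (0.41, adjusted p = 0.00103), the vesicle protein Sv2a (0.27, adjusted p = 0.00355) and Cplx3, the complexin of ribbon synapses (0.34, adjusted p = 0.00313). Cplx1, the complexin of conventional synapses, was lower (-0.27, adjusted p = 0.00735).

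Calcium and kinase signalling held 7 raised genes with smaller increases of 0.60 to 0.71. Camkv, a pseudokinase of the calmodulin kinase type, was at 6.81, 6.34 and 5.39 RPKM in ONC and 10.4, 9.25 and 10.7 RPKM in TPEN (0.71, SE 0.10, adjusted p = 0.00259). Hpca, the calcium sensor hippocalcin (0.67, adjusted p = 0.00498), Necab1, a neuronal calcium-binding protein (0.67, adjusted p = 0.00587), and Sphkap, an anchor of protein kinase A (0.62, adjusted p = 8.1e-04), rose by similar amounts. All 4 were chosen after their values were seen.

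Matrix genes split. Of 16 collagens, laminins and other matrix genes, 3 were higher, all of them DEGs, and 4 were lower, 2 of them DEGs. Col6a1, a chain of collagen VI, was at 0.675, 0.755 and 0.567 RPKM in ONC and 1.44, 1.53 and 1.71 RPKM in TPEN (1.12, SE 0.15, adjusted p = 0.00267). Col4a2, a chain of basement membrane collagen IV on chromosome 8 (11312805 to 11449287, GRCm38), rose from 0.585, 0.631 and 0.579 RPKM to 1.25, 1.16 and 1.74 RPKM (1.07, SE 0.15, adjusted p = 0.00346). Col4a1, its partner chain, which is read from the other strand next to it, moved the opposite way. Col4a1 was at 4.14, 3.62 and 3.94 RPKM in ONC and 2.83, 2.94 and 3.18 RPKM in TPEN (-0.38, SE 0.08, adjusted p = 0.0259), a call lost without ONC replicate 1 or 3 or TPEN replicate 1 or 2 (up to 0.101). Their spans overlap by a few bases at their starts. Fn1, fibronectin, fell from 3.38, 3.30 and 3.13 RPKM to 0.981, 0.905 and 0.772 RPKM (-1.78, SE 0.13, adjusted p = 4.3e-05). Thbs1, thrombospondin 1, fell from 1.29, 1.23 and 1.46 RPKM to 0.0824, 0.222 and 0.165 RPKM (-2.51, SE 0.24, adjusted p = 2.9e-04).

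The raised genes held a well-measured pair of transcripts known as long noncoding RNAs, Meg3 and Snhg11. Meg3, an imprinted noncoding RNA of neurons on chromosome 12 (109541001 to 109571726, GRCm38), was at 11.2, 11.0 and 11.4 RPKM in ONC and 22, 21.9 and 21.5 RPKM in TPEN (0.95, SE 0.04, adjusted p = 1.9e-06). Ctrl was at 16.5, 16.5 and 15.2 RPKM, between the other groups. Mir770, a microRNA precursor that lies within Meg3, followed it from 32.9, 30.1 and 25.9 RPKM to 83.0, 71.8 and 74.1 RPKM (1.37, SE 0.11, adjusted p = 1.2e-04), and its reads cannot be told apart from those of its host. Snhg11, a neuronal snoRNA host transcript that GENCODE lists as protein coding, rose from 3.11, 3.16 and 3.09 RPKM to 7.01, 7.29 and 7.45 RPKM (1.19, SE 0.07, adjusted p = 9.1e-06). Malat1, an abundant nuclear RNA, rose less, from 211, 211 and 220 RPKM to 262, 266 and 270 RPKM (0.31, SE 0.03, adjusted p = 4.1e-04). No other member of the list of 21 long noncoding RNAs tested passed. Of the 31 predicted or noncoding raised genes, some of which, like Snhg11, are protein coding in GENCODE, 20 overlapped another listed gene.

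The remaining coding genes had no common role, and 8 of the 26 kept an adjusted p under 0.05 whichever library was left out. Trank1, a large protein with tetratricopeptide and ankyrin repeats, was at 0.772, 0.713 and 0.919 RPKM in ONC and 1.91, 1.90 and 1.80 RPKM in TPEN (1.13, SE 0.12, adjusted p = 6.4e-04). Hkdc1, a hexokinase-like gene, rose from 2.15, 1.99 and 2.29 RPKM to 3.82, 4 and 4.06 RPKM (0.86, SE 0.10, adjusted p = 1.0e-03). Tro, trophinin, had 0.77 (adjusted p = 0.00552), and the noncoding 2610037D02Rik 0.75 (adjusted p = 0.0119). Ctrl was lower for Hkdc1, at 1.45 to 1.80 RPKM. Hbb-bs, an adult beta-globin and thus a mark of red blood cells, was at 3.85, 2.61 and 1.59 RPKM in ONC and 6.65, 6.15 and 5.74 RPKM in TPEN (1.26, SE 0.30, adjusted p = 0.0334), and it lost its call without ONC replicate 2 or 3 or any TPEN library (up to 0.0938).

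Calls of the remaining genes named by the rule were less firm. Lnpep (0.75, adjusted p = 0.0130) lost its call without ONC replicate 2 or TPEN replicate 1 (up to 0.0536), and Als2cr11b (0.75, adjusted p = 0.0125) without ONC replicate 2 (0.0508). Vstm2a (0.77, adjusted p = 0.0215) lost it without ONC replicate 2 or 3 or TPEN replicate 2 or 3 (up to 0.0749). For Ssc5d (0.91, adjusted p = 0.0226) the libraries were ONC replicate 1 or 3 and TPEN replicate 1 or 2 (up to 0.0821). The processed pseudogene Gm12993 (1.04, adjusted p = 0.0409, up to 0.120) passed in 2 of 9 such fits, without ONC replicate 3 or TPEN replicate 2, and A930006K02Rik (0.87, adjusted p = 0.0359, up to 0.121) in 2, without Ctrl replicate 1 or 3.

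Some genes of the sugar pathway that photoreceptors rely on were higher by small amounts. Of 20 tested members of the glycolysis list, which holds transporters beside enzymes, 7 were higher and 1 lower, 0 were DEGs, and the median was 0.06. Gapdh was at 69.1, 69.8 and 67.5 RPKM in ONC and 80.8, 78.8 and 83.7 RPKM in TPEN (0.24, SE 0.03, adjusted p = 0.00179). Pfkm, a subunit of phosphofructokinase (0.32, adjusted p = 0.00688), and Pgam1, a mutase (0.26, adjusted p = 0.00267), rose by like amounts. Hk1, the first enzyme of the pathway in neurons, had -0.10 (adjusted p = 0.0230, and up to 0.0927 without any 1 of the ONC or TPEN libraries). Markers of RGCs went the other way, with 5 of 9 lower and 1 higher. Nefl and Nefm, the light and medium neurofilaments, both had -0.42 (adjusted p = 6.3e-05 and 3.8e-04), and Gap43, a growth cone protein, had -0.28 (adjusted p = 0.00210). Thy1, which encodes the CD90 used in the sort, was higher (0.40, SE 0.06, adjusted p = 0.00587), at 5.26, 5.26 and 5.54 RPKM in ONC and 6.70, 7.08 and 7.58 RPKM in TPEN.

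Transcripts of activated phagocytes were among the genes that fell most, together with a set of predicted genes given in the closing section. Of 14 microglia and macrophage markers tested, 8 were lower, 7 of them DEGs, with a median of -0.89. In the list of alternatively activated or repair-type macrophage genes 9 of 12 fell, with a median of -1.37, among them Arg1, arginase 1, from 38.8 to 39.3 RPKM in ONC to 0.951 to 1.13 RPKM in TPEN. Saa3, an acute-phase protein, was at 6.19, 5.81 and 6.77 RPKM in ONC and had no read in any TPEN library. Cxcl2, a chemokine that attracts neutrophils, was at 3.81, 3.66 and 4.19 RPKM in ONC and 0.145, 0.131 and 0.0970 RPKM in TPEN (-4.16, SE 0.23, adjusted p = 8.7e-06), a 31.3-fold ratio of the means. Tgfbi, a matrix protein made by macrophages, fell from 4.26, 4.44 and 4.55 RPKM to 0.299, 0.571 and 0.431 RPKM (-3.11, SE 0.21, adjusted p = 2.8e-05). Ctrl was lower still, at 0 to 0.0837 RPKM for Cxcl2 and 0.0323 to 0.0744 RPKM for Tgfbi. The TPEN libraries of Tgfbi stayed above all Ctrl libraries. For Cxcl2 the TPEN and Ctrl values rest on a few reads, near the floor given above. Their order, and the size of the ratio to ONC, are therefore uncertain. Other genes of these cells fell less far. Lyz2, lysozyme, was at 19, 18.4 and 20.6 RPKM in ONC and 4.27, 5.12 and 4.04 RPKM in TPEN (-2.09, SE 0.14, adjusted p = 2.7e-05), and Mpeg1, the pore-former of macrophages, fell by 1.49 on the log2 scale (adjusted p = 5.8e-05).

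All 3 tested subunits of the phagocyte NADPH oxidase, which makes superoxide, were downregulated. Cybb, the catalytic subunit, fell from 1.83, 1.75 and 1.84 RPKM to 0.517, 0.217 and 0.380 RPKM (-2.07, SE 0.28, adjusted p = 0.00248). Ncf1, a cytosolic subunit, fell by 2.10 (adjusted p = 4.3e-05) and shares exon sequence with Gtf2ird2, and Cyba, the membrane partner, fell by 1.47 (adjusted p = 0.0109). Chemokines fell in 4 of 8 members, and among 10 tested complement genes 2 were lower and 1 higher, where C3 had -2.04 (adjusted p = 2.7e-04) and Itgam, the CR3 integrin chain, -1.32 (adjusted p = 5.8e-05). Lysosomal cathepsins fell in 6 of 12, with 2 DEGs. Ctss, the cathepsin of antigen-presenting cells, was at 54.7, 54.8 and 49.6 RPKM in ONC and 29.9, 31.1 and 31.2 RPKM in TPEN (-0.78, SE 0.09, adjusted p = 7.3e-04), still above Ctrl at 4.05 to 5.32 RPKM. The summed microglia and macrophage markers given above moved with all of these genes, and their part in the decreases was not tested.

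**Figure D4:**
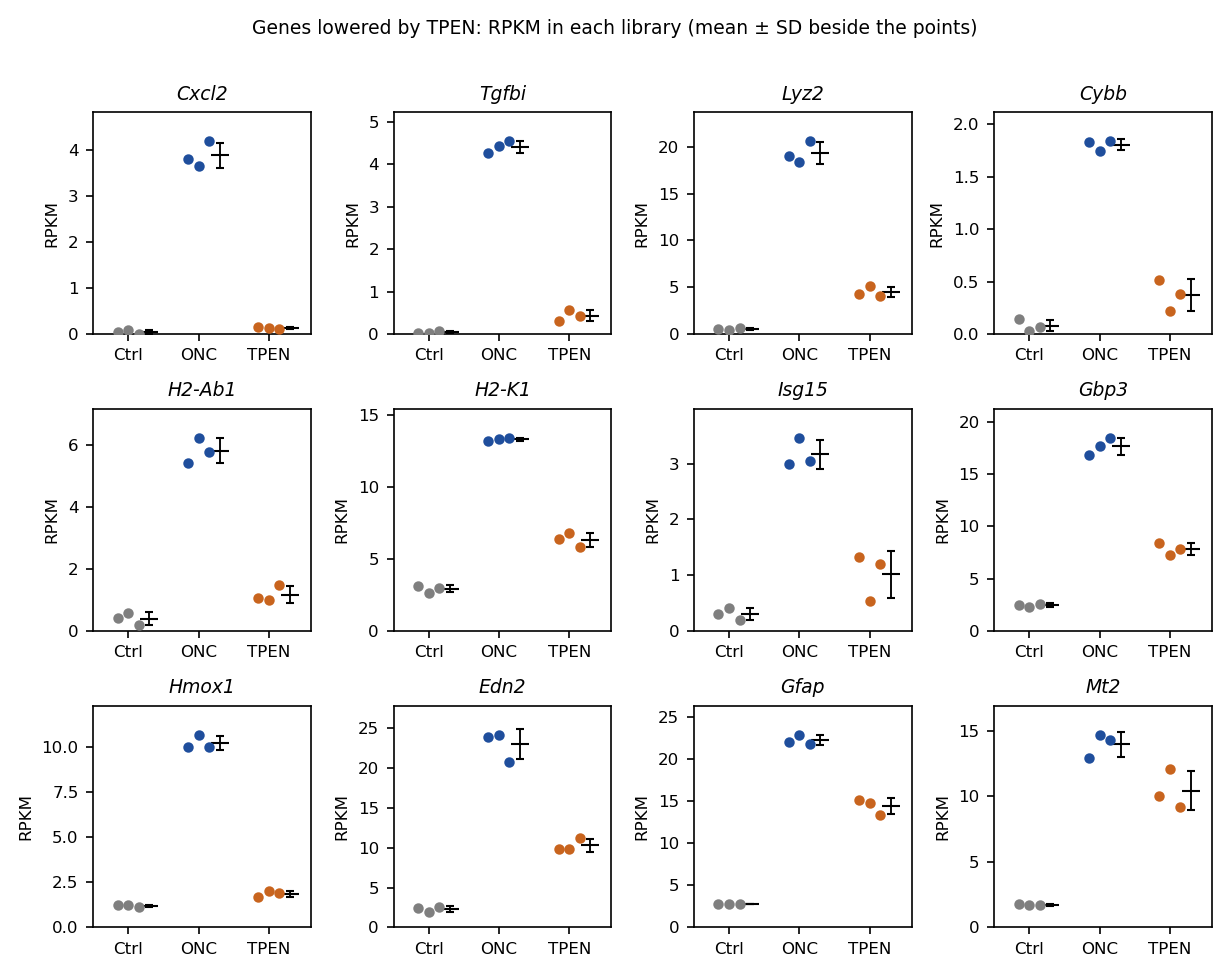
RPKM of 12 genes lower in TPEN than in ONC in each library of Ctrl (grey), ONC (blue) and TPEN (orange), with the mean ± SD of each group beside its points. Cxcl2, Tgfbi and Hmox1 lie between the Ctrl and ONC points in TPEN, as do Gbp3, Edn2, Gfap and Mt2, but Cxcl2 rests on a few reads in TPEN and Ctrl.

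Antigen presentation and interferon-response genes fell together. Of 16 genes of MHC class I presentation and the immunoproteasome, 7 were lower and none higher, with 6 DEGs and a median of -0.59. H2-K1, a classical class I heavy chain, was at 13.2, 13.3 and 13.4 RPKM in ONC and 6.35, 6.80 and 5.82 RPKM in TPEN (-1.06, SE 0.08, adjusted p = 4.3e-05), and H2-D1 fell by 0.93 (adjusted p = 2.7e-05). Class I genes are near copies of each other, so reads could be split between them. The class II genes H2-Ab1 (-2.24, adjusted p = 0.00164) and H2-Eb1 (-2.14, adjusted p = 0.00167), which present antigen on phagocytes and B cells, fell further. Of 25 interferon-induced antiviral genes, 15 were lower, 12 of them DEGs, and none was higher, with a median of -0.64. Ifit3, which blocks the translation of viral RNA, was at 28.5, 27.7 and 28.2 RPKM in ONC and 15.4, 16.6 and 14.9 RPKM in TPEN (-0.85, SE 0.06, adjusted p = 4.0e-05). Isg15, a ubiquitin-like modifier, fell from 2.99, 3.46 and 3.05 RPKM to 1.32, 0.536 and 1.19 RPKM (-1.63, SE 0.30, adjusted p = 0.0109). Gbp3, a guanylate-binding GTPase, fell from 16.9, 17.7 and 18.5 RPKM to 8.43, 7.31 and 7.82 RPKM (-1.16, SE 0.07, adjusted p = 1.8e-05). The TPEN libraries of all these genes stayed above the Ctrl libraries, which were at 3.84 to 4.34 RPKM for Ifit3 and 2.28 to 2.59 RPKM for Gbp3.

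The promoter of Isg15 is shown for the interferon-stimulated response element, which the ISGF3 complex binds and which holds the letters GAAANNGAAA. The window is the 250 bases before the RefSeq start (chr4:156200819-156201068, minus strand, GRCm38.p6), printed on the strand of the gene with the matches in capitals.
Isg15: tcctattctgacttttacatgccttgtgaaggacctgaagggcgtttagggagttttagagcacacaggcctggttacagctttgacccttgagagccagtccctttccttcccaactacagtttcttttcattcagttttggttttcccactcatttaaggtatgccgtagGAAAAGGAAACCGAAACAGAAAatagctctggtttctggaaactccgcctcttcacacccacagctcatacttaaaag
It holds 3 overlapping matches between 78 and 57 bases before the start. Of the 15 antiviral genes that were lower, 12 had a window and 6 of these (Bst2, Ifit1, Ifit3, Ifit3b, Isg15 and Stat2) held the letters on either strand, against 2.98% of 32851 windows and 2.88% of those of 9160 genes tested. The calls of Bst2, without ONC replicate 1 or 2 or TPEN replicate 3, and of Ifit1, without any ONC library or TPEN replicate 1 or 2, were lost at an adjusted p of up to 0.0576 and 0.0643. A match describes letters and does not show binding in these cells.

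Some genes of iron handling and of glial stress were also lower. Hmox1, heme oxygenase 1, fell from 10.0, 10.7 and 10.0 RPKM to 1.69, 2.01 and 1.89 RPKM (-2.40, SE 0.09, adjusted p = 3.6e-07), close to Ctrl at 1.14 to 1.26 RPKM. The ferritin light chain Ftl1 (-0.62, adjusted p = 0.00149) and heavy chain Fth1 (-0.39, adjusted p = 1.2e-04) fell less, and of 12 iron genes 3 were lower and 1 higher. In the Müller glia list of LIF, endothelin and STAT3 genes, 4 of 11 were lower and none higher, with a median of -0.14. In the list of reactive glia genes 2 of 13 were lower and 1 higher, with a median of -0.07. Edn2, the endothelin that injured photoreceptors release, was at 23.9, 24.2 and 20.8 RPKM in ONC and 9.82, 9.85 and 11.2 RPKM in TPEN (-1.15, SE 0.11, adjusted p = 4.2e-04). Gfap, the intermediate filament of reactive glia, fell from 22, 22.9 and 21.8 RPKM to 15.1, 14.8 and 13.4 RPKM (-0.62, SE 0.05, adjusted p = 1.6e-04). Both were far above Ctrl in TPEN, where Edn2 was at 1.89 to 2.59 RPKM and Gfap at 2.73 to 2.83 RPKM without injury. Fgf2, a growth factor that protects photoreceptors, had -0.58 (adjusted p = 4.8e-04) and overlaps Nudt6, and Bcl3, a nuclear partner of NF-kB that STAT3 induces, had -1.57 (adjusted p = 8.1e-04).

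Genes that handle zinc itself moved little in RNA. None of the 6 SLC30 exporters and none of the 10 SLC39 importers tested passed the test in limma, with log2 fold changes of -0.31 to 0.21 and -0.57 to 0.12. At an unadjusted p under 0.05 the counts were 0 and 2, and limma-voom on the whole reads gave 0 and 0. Slc30a1, the exporter at the cell surface that zinc induces, was at 4.86, 4.02 and 4.47 RPKM in ONC and 4.96, 4.91 and 4.60 RPKM in TPEN (0.12, SE 0.08, adjusted p = 0.456). Mtf1, the factor that senses zinc, had 0.03 (adjusted p = 0.854). Of the metallothioneins, Mt2 was lower, at 12.9, 14.7 and 14.3 RPKM in ONC and 10.0, 12.1 and 9.21 RPKM in TPEN (-0.42, SE 0.10, adjusted p = 0.0289). This call for Mt2 was lost without ONC replicate 1, 2 or 3 and without TPEN replicate 1 or 3 (up to 0.103). Mt1 (-0.32, adjusted p = 0.590) and Mt3 (0.09, adjusted p = 0.886) did not pass. In all TPEN libraries Mt2 stayed above Ctrl, which was at 1.69 to 1.82 RPKM.

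MTF1 binds metal response elements with the core TGCACNC or TGCGCNC, and Mt2 is among its known targets. The 250 bases before the RefSeq start of Mt2 (chr8:94172368-94172617, plus strand, GRCm38.p6) are shown with the cores in capitals.
Mt2: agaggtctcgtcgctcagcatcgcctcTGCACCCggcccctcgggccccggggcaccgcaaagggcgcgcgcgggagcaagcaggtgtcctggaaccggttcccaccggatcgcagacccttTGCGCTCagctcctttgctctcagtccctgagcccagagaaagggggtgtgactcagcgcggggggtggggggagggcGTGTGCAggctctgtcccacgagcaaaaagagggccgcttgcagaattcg
There are 3 matches, the farthest beginning 223 bases before the start and the nearest, on the reverse strand, ending 44 bases before it. The core is short and 21.4% of 32851 windows hold it on either strand, as do 34.7% of the windows of 9160 genes tested, so a match is common.

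The kinases of the integrated stress response were measured beside these. Eif2ak2, the kinase that senses double-stranded RNA and is itself induced by interferon, fell from 4.86, 5.80 and 6.08 RPKM to 2.87, 3.21 and 3.34 RPKM (-0.81, SE 0.12, adjusted p = 0.00413). For the others the log2 fold changes were -0.03 (Eif2ak1), 0.05 (Eif2ak3) and 0.13 (Eif2ak4), and none passed. Atf4, the factor that the kinases switch on mainly at the level of translation, had -0.01 in RNA, and Oma1, a zinc metalloprotease of mitochondria, -0.25 (adjusted p = 0.277). Of 27 ATF4 targets and amino acid stress genes, 5 were lower and none higher, and 1 of the 5 kept an adjusted p under 0.05 whichever library was left out.

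**Figure D5:**
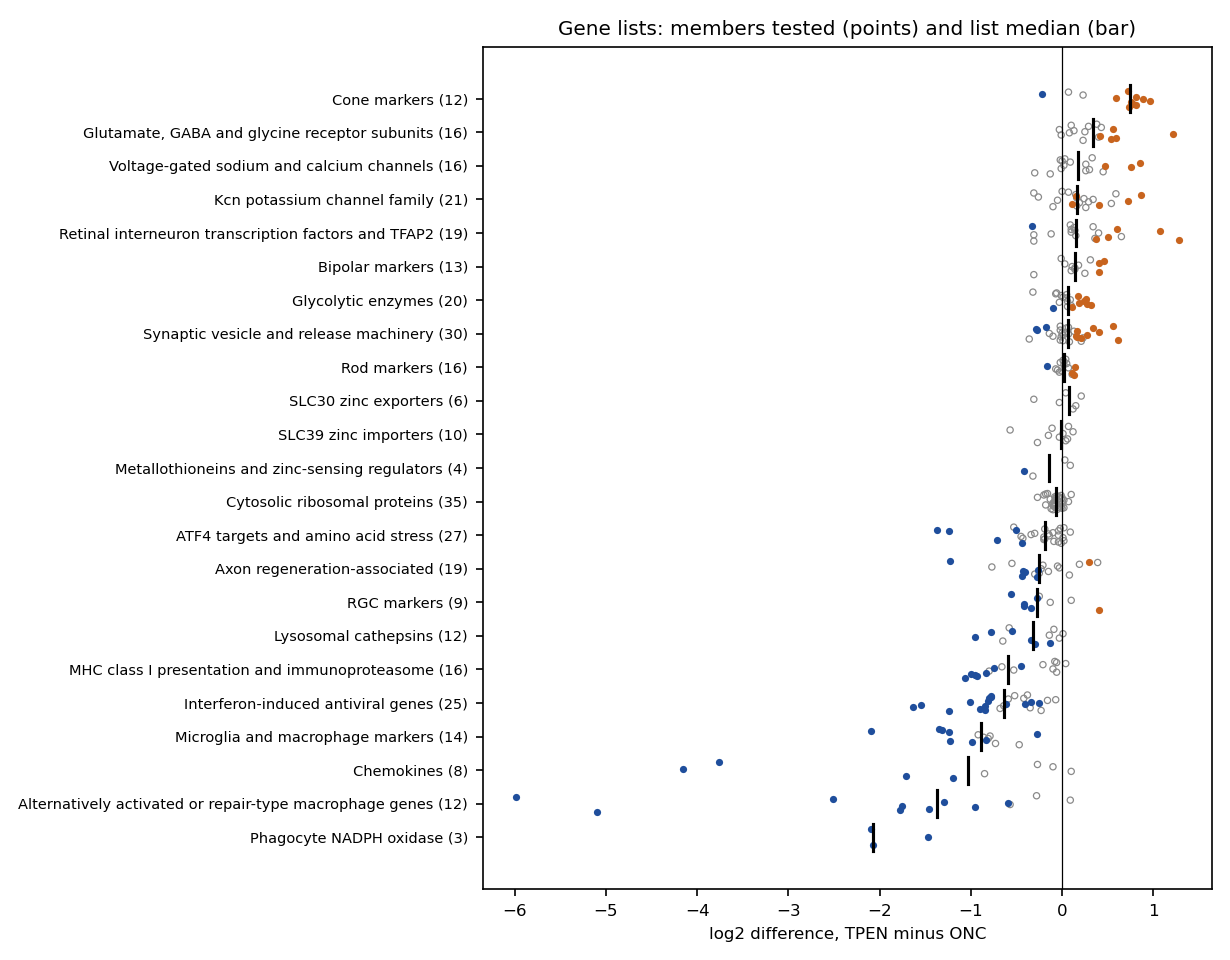
Log2 fold changes in TPEN against ONC of the tested members of 23 gene lists, with the number tested in brackets and the list median as a bar. Filled points passed at an adjusted p under 0.05 (orange higher, blue lower) and open points did not, and the medians run from 0.74 for cone markers to -2.07 for the NADPH oxidase.

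Housekeeping lists differed in how many members passed. In limma 0 of 35 ribosomal protein genes, 0 of 20 cytosolic tRNA synthetases and 0 of 21 cholesterol synthesis genes were past the threshold. At an unadjusted p under 0.05 these counts were 7, 4 and 3, and by voom 2, 2 and 0. Other lists had passing members, with 4 of 33 splicing factors lower, 3 of 39 chromatin genes higher and 2 lower. Lower were also 4 of 17 heat shock genes, with 1 higher, 3 of 21 ER chaperone genes and 1 of 27 proteasome genes. In the respiratory chain list 1 of 35 was higher. Over all genes tested 3.24% were higher and 4.14% lower, so the proteasome and respiratory chain counts and the lower chromatin count lie near the background. Of 22 genes of Notch, Wnt, BMP and Hedgehog signalling 0 passed in limma, with 3 at an unadjusted p under 0.05 and 2 by voom.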

How the data were processed

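RNA of sorted cells was sequenced in 9 libraries, 3 each of Ctrl, ONC and TPEN. Per the methods, libraries were made with a stranded mRNA kit with molecular identifiers, and the authors mapped reads to GRCm38/mm10 with STAR and deposited RPKM values per gene. Per the labels, reads were trimmed with Trimmomatic 0.36. The counting program, its use of strand and the collapse of identifiers are not given in the sources used here. The deposited file also holds fold changes, p-values and FDRs of the authors' comparisons, which were not used, and 0 columns of per-sample values were left unused. RPKM times exon length gave whole reads, within 0.02 reads, for 100% of values, from which library totals were taken.

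The 13566 of 15228 genes whose mean over the 9 libraries reached 0.5 RPKM were tested on log2(RPKM + 0.1) with limma 3.58.1 in R 4.3.3, with a mean-variance trend, all 9 libraries in 1 fit, and p-values were adjusted by Benjamini-Hochberg across these genes. The authors used edgeR, which was not run here. limma was chosen because the deposited unit is RPKM, and voom on the whole reads was an alternative. DEGs changed at least 1.5-fold with an adjusted p under 0.05. The test was tried on simulated data with known changes and an assumed spread. Of 50 genes raised 1.5-fold, 18 were called DEGs and 33 passed at any fold, and of 50 lowered 1.5-fold, 22 and 30. At 2-fold, 45 of 50 raised and 42 of 50 lowered genes were called. Named were the 30 largest increases and 20 largest decreases (those not described in the report are in the closing section) among DEGs whose mean reached 1 RPKM, with no overlap between the 3 TPEN and 3 ONC libraries and no overlap with another listed gene, up to 4 members per list that passed, the zinc lists and the genes of the study's stress pathway. Genes beyond this rule were chosen after their values were seen, as were the roles of the raised genes. These are Camkv, Hpca, Necab1, Sphkap, Dpp6, Slc4a10, Ptprf, the genes that overlap a named gene, Thy1, Gngt2, Thrb, Gnb3, Col4a1, Malat1, Sv2a, Cplx1, Hk1, Gap43, Grin2d, Pax6, Ifit3, Ifit3b, Stat2, Rn7s1, AC099934.2, Gm23935 and n-R5s154. Some members of the lists are counted but not reported here by name. The comparison and the lists were chosen with earlier results of these data known. Gene positions were those of the file, overlaps were computed from them on either strand, and 14756 genes matched a GENCODE M21 entry. Sequences are from RefSeq (GRCm38.p6). Python 3.11.15 was used for summaries. Alternatives were other scalings, filters, pseudocounts, thresholds and tests, a fit of 6 libraries, the replicate number as a block and leaving out each library.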

Additional observations from a re-analysis of the deposited data

How the results depend on the processing

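The counts of DEGs moved with the threshold and with the handling of low genes. The 111 upregulated genes became 39 with a pseudocount of 1 RPKM, 19 with a fold change of at least 2 and 7 with a test against a fold change of 1.5, and ranged from 83 to 117 when 1 library was left out. The 164 downregulated genes became 281 without a filter, 105 with a mean of at least 1 RPKM, 89 with a fold change of at least 2 and 40 with the test against 1.5, and ranged from 110 to 175. At any fold, voom on the whole reads gave 740 higher and 948 lower genes in place of 440 and 562, genes without an overlap gave 287 higher of 7807 tested, and leaving out 1 library gave 247 to 491 higher and 279 to 660 lower. The cause of these shifts was not tested. With the replicate number as a block, the replicate block fit gave 97 upregulated and 146 downregulated genes and 304 and 397 at any fold. The same-numbered libraries did not deviate together, with correlations of -0.062 to 0.027, so the number was not taken as a pairing, and only TPEN replicate 1 correlated best with the ONC library of its own number. Of 237 genes followed through the alternatives, 207 passed in the main fit, and the sign turned in 11 of the values under alternatives, all of genes near 0 that did not pass. Without ONC replicate 3 or TPEN replicate 3 Mt3 had -0.16 and -0.08 (highest 0.31 without another library), without ONC replicate 1 or TPEN replicate 1 Mtf1 had -0.01 and -0.02 (highest 0.07), without TPEN replicate 2 Slc39a2 had -0.06 (highest 0.14), without ONC replicate 1 Slc39a6 had 0.01 and Slc39a9 -0.07 (highest 0.05), without ONC replicate 3 Slc39a14 had -0.01 (highest 0.12), and without ONC replicate 3 or TPEN replicate 1 Eif2ak1 had 0.01 and 0.02 (lowest -0.10). With quantile normalization Atf4 had 0.02. Of the single libraries, leaving out ONC replicate 2 lost the most calls of these genes. The median level of the raised genes was 1.84 RPKM, and the effect of depth on how many were called was not tested.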

Other observations

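Other phagocyte genes were among the 20 largest decreases. Lilrb4a, an inhibitory receptor of myeloid cells, was at 2.45, 3.41 and 2.99 RPKM in ONC and 0.466, 0.638 and 0.336 RPKM in TPEN (log2 fold change -2.41, adjusted p = 4.1e-04). Ccl6, a chemokine of macrophages, had -1.71 (adjusted p = 5.8e-05), Plin2, which coats lipid droplets, -1.54 (adjusted p = 0.00611), and Pik3ap1, a signalling adaptor of B cells and macrophages, -1.51 (adjusted p = 0.00345). Calls of the genes that follow were less firm, and each was lost when any 1 of several libraries was left out. Fcer1g, the signalling chain of Fc receptors (-1.79, adjusted p = 0.0187), lost its call without ONC replicate 2 or 3 or TPEN replicate 1 or 3 (up to 0.0720). Bst2, tetherin (-1.55, adjusted p = 0.0146), lost it without ONC replicate 1 or 2 or TPEN replicate 3 (up to 0.0576). Slfn2, a schlafen of leukocytes (-1.38, adjusted p = 0.0358), lost it without any ONC library or TPEN replicate 2 or 3 (up to 0.112). Outside the 20 largest decreases, the antiviral gene Ifit1 (-1.24, adjusted p = 0.0166) lost its call without any ONC library or TPEN replicate 1 or 2 (up to 0.0643).

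A set of predicted genes fell more steeply than nearly all named genes. Gm10800, on chromosome 2 (98666547 to 98667301, GRCm38), was at 349, 365 and 325 RPKM in ONC, 16.5, 17.3 and 18.1 RPKM in TPEN and 71.0, 70.9 and 68.7 RPKM in Ctrl. TPEN libraries thus lay below the uninjured ones, unlike those of the phagocyte genes. Gm21738, at 34.9 to 43.0 RPKM in ONC and at most 1.65 RPKM in TPEN, and Gm10801, at 24.6 to 27.8 RPKM in ONC and 0.596 to 1.61 RPKM in TPEN, showed the same order of groups. Reads of such predicted genes are uncertain where near copies of them exist.

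Some short structured RNAs were lower in TPEN while ONC and Ctrl were alike. Rn7s1, a 7SL RNA of the signal recognition particle, was at 10.3, 11 and 11.3 RPKM in ONC, 3.00, 5.70 and 4.34 RPKM in TPEN and 10.3 to 13.3 RPKM in Ctrl (-1.35, adjusted p = 0.00300), and it overlaps AC099934.2 (-1.41). The 5S-type n-R5s154 had -1.07 (adjusted p = 0.00643) and Gm23935 -0.87 (adjusted p = 5.8e-04).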
